A study of Mus musculus with 6 samples.

Results

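The genes examined were those of the mitochondrial ribosome and of the machinery that imports proteins into mitochondria, in the forearm bones of newborn mice. They were the genes whose only platform symbol begins with Mrpl, Mrps, Timm or Tomm followed by a number, each represented by its brightest probe set. This gave 47 of the 5780 named genes in the deposited table, namely 21 Mrpl genes, 13 Mrps genes, 6 Timm genes and 7 Tomm genes. That table held only probe sets that passed a filter by level, so it is not the full content of the arrays. Among protein-coding RefSeq genes 103 symbols fit the same pattern. The other 56 had no probe set with that symbol alone in the deposited table, so their levels could not be read. The rule itself used the symbols and the overall brightness of probe sets, not the difference between genotypes. It was set, however, with earlier results of these data known.

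Total RNA of radii and ulnae was measured on 6 Affymetrix whole-transcript arrays. The mutant group was 3 samples from mice of strain 129sv labelled del175k mutant, a mutation of Tnni2, which encodes the fast skeletal muscle form of troponin I. The wild-type group was 3 samples from their wild-type littermates of the same strain and age. The labels give neither the zygosity of the mutants nor whether bones of several mice were pooled, so p-values reflect only how far these samples differed, some of which may be technical. The array of wild-type replicate 1 was dimmer than the rest, with a median intensity of 39.6 against 45.5 to 48.4 on the other 5 arrays. The bone label was borne out by matrix genes: Col1a1, the main collagen of bone, averaged an intensity of 7479 in mutant and 7304 in wild-type samples, and the cartilage collagen gene Col2a1 averaged 3549 in mutant and 3415 in wild-type samples. The 16 measured markers of bone and cartilage summed to between 19472 and 20014 on the mutant arrays and between 15422 and 20326 on the wild-type arrays.

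Mitochondria keep a small genome that encodes core subunits of the respiratory chain, and these are made on a ribosome of their own. Its large subunit is built from Mrpl proteins and its small subunit mostly from Mrps proteins, all encoded in the nucleus and made in the cytosol. Those proteins, like nearly all others of the organelle, enter through the TOM complex of the outer membrane, and those bound for the matrix or inner membrane then pass to the TIM complexes. Bone-forming cells, cartilage cells and the muscle attached to newborn bone all depend on this supply, and dividing cells need it to make new mitochondria.

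Most of the 47 genes had slightly lower mean levels in mutant bone, but no gene passed the test. The mean log2 intensity was lower in the mutants for 34 genes (72.3%) and higher for 13, whereas over all 8997 probe sets it was lower in 43.3%. The median log2 difference, mutant minus wild type, was -0.10 over the 47 genes and 0.04 over all probe sets. Single differences ran from -0.53 for Timm17b to 0.45 for Mrpl9. In limma's moderated test 0 of the 47 passed an adjusted p of 0.05, as did 0 (0%) of all probe sets, and the smallest adjusted p among the 47 was 0.667. At an unadjusted p under 0.05, 1 of the 47 was higher in the mutants (Mrpl9) and 0 were lower, against 5.74% higher and 1.7% lower of all probe sets. The lowest mutant value exceeded the highest wild-type value in 2 genes, Mrpl9 and Mrps6, against 9.18% of all probe sets. The reverse held for 0 genes, against 3.89%.

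**Figure D1:**
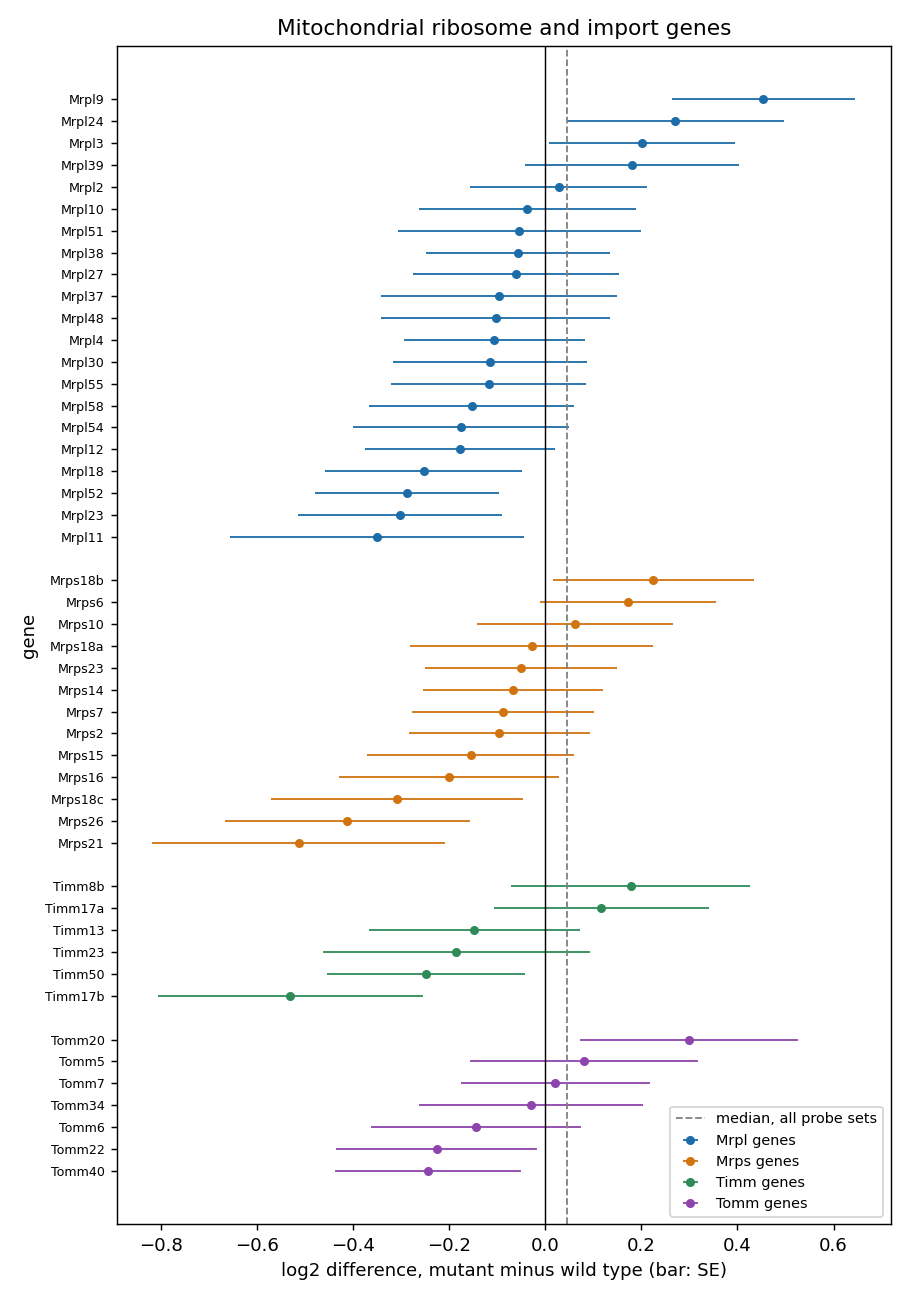
Log2 difference in intensity, mutant minus wild type, for each of the 47 genes (points, bars showing the SE of limma's fit), grouped by class from top to bottom. Differences run from -0.53 to 0.45, and 34 of the 47 points lie left of 0, while the median of all probe sets (dashed) lies at 0.04.

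The precision of these arrays was enough to bound most of the differences in deposited intensity. How the values were background-corrected was not given, so these are not bounds on the change in RNA. The 95% interval of the log2 difference lay within 2-fold in either direction for 44 of the 47 genes (93.6%), which compares with 79.4% of all probe sets. The exceptions were Mrpl11, Mrps21 and Timm17b, whose intervals reached -1.04, -1.20 and -1.15. The interval excluded 0 for Mrpl9, from 0.03 to 0.88, before any adjustment over probe sets. Of the 47 genes, 11 were under an intensity of 20 on at least 1 array, but 0 were under 20 on all arrays of a group. The deposited table held only probe sets that reached 20 on at least 3 arrays. Timm17b and Mrps26 were under 20 on 2 mutant arrays and on 0 wild-type arrays, and Tomm22 on 2 mutant arrays and 1 wild-type array. These genes met that filter mainly through the wild type, where they were higher, so their lower mutant means are partly tied to it. As these are whole-tissue samples, fewer cells of a type and less RNA per cell cannot be told apart.

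The large ribosomal subunit was represented by 21 Mrpl genes, of which 5 had higher and 16 lower means in the mutants, with a median log2 difference of -0.10. Mrpl9, which encodes a protein of the large subunit, had intensities of 54.0, 52.0 and 49.2 in the mutants, against 35.7, 34.9 and 43.1 in the wild type. Every mutant array was above every wild-type array, by a mean log2 difference of 0.45 ± 0.19 (SE, n = 3 each), or 1.37-fold (limma adjusted p = 0.667). Mrpl24 had intensities of 45.2, 49.5 and 61.7 in the mutants, against 34.9, 51.9 and 43.4 in the wild type, and the groups overlapped (log2 difference 0.27 ± 0.23, adjusted p = 0.770). Mrpl3, a large-subunit protein whose human counterpart is mutated in some mitochondrial cardiomyopathies, was at 29.9, 26.8 and 32.1 in the mutants, against 23.4, 28.7 and 25.1 in the wild type (log2 difference 0.20 ± 0.19, adjusted p = 0.792). Its lowest mutant value lay below the highest wild-type value.

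The large-subunit genes of smallest p with lower means were Mrpl52, Mrpl23 and Mrpl18. Mrpl52, a protein found in the mitochondrial but not the bacterial ribosome, had intensities of 27.6, 28.4 and 33.0 in the mutants, against 32.8, 39.0 and 36.6 in the wild type. The groups met at mutant replicate 3 and wild-type replicate 1, and the log2 difference was -0.29 ± 0.19 (SE, n = 3 each; limma adjusted p = 0.735). Mrpl23 was at 36.0, 40.7 and 53.4 in the mutants, against 48.3, 54.4 and 55.7 in the wild type (log2 difference -0.30 ± 0.21, adjusted p = 0.746). Its second probe set gave a log2 difference of -0.32 ± 0.21. Mrpl18 averaged 52.0 ± 7.58 in the mutants and 61.8 ± 6.95 in the wild type (SD, n = 3 each), a log2 difference of -0.25. The largest lower mean of the class was that of Mrpl11, part of the site where translation factors bind, at -0.35 ± 0.31. There wild-type replicate 3 was at 40.7, and the other 5 arrays lay between 16.6 and 21.5. Mrpl58, a peptidyl-tRNA hydrolase that frees stalled ribosomes, was at -0.15, and Mrpl12, which can also bind the mitochondrial RNA polymerase, was at -0.18. The log2 differences of Mrpl2, Mrpl4, Mrpl10, Mrpl27, Mrpl30, Mrpl37, Mrpl38, Mrpl39, Mrpl48, Mrpl51, Mrpl54 and Mrpl55 lay between -0.18 (Mrpl54) and 0.18 (Mrpl39), each within 1 SE of 0.

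Among the 13 Mrps genes, 3 had higher and 10 lower means in the mutants, with a median log2 difference of -0.09. Mrps21 encodes a small-subunit protein with a bacterial counterpart. Its intensities were 18.3, 25.1 and 42.8 in the mutants, against 32.8, 38.2 and 45.6 in the wild type, a log2 difference of -0.51 ± 0.31 (SE, n = 3 each; limma adjusted p = 0.720). Mutant replicates 1 and 2 lay below all wild-type arrays, whereas mutant replicate 3 lay above wild-type replicates 1 and 2. Mrps26, which has no bacterial counterpart, was at 19.1, 15.5 and 28.4 in the mutants, against 23.3, 27.5 and 30.8 in the wild type (log2 difference -0.41 ± 0.26, adjusted p = 0.723). Mutant replicate 3 was again within the wild-type range.

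The related genes Mrps18a, Mrps18b and Mrps18c encode alternative versions of 1 bacterial protein, the first of them found in the large subunit. Mrps18c was at 29.6, 24.9 and 38.8 in the mutants, against 27.5, 42.7 and 46.2 in the wild type (log2 difference -0.31 ± 0.26, limma adjusted p = 0.772). Mrps18b was at 58.4, 45.2 and 46.0 in the mutants, against 36.4, 43.4 and 48.2 in the wild type (log2 difference 0.22 ± 0.21, adjusted p = 0.788). Mrps18a had a log2 difference of -0.03 ± 0.25. Thus 1 of these relatives had a higher mean and 2 had lower means in the mutants, with 0 past the test. Mrps6 was the other gene whose groups did not overlap, at 25.1, 27.7 and 24.1 in the mutants against 23.1, 22.1 and 22.9 in the wild type. Its difference was small, 0.17 ± 0.18 on the log2 scale (adjusted p = 0.818). Mrps10 averaged 21.5 ± 0.575 in the mutants and 20.8 ± 3.73 in the wild type (SD, n = 3 each). The log2 differences of Mrps2, Mrps7, Mrps14, Mrps15, Mrps16 and Mrps23 lay between -0.20 (Mrps16) and -0.05 (Mrps23), also within 1 SE of 0.

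The 6 Timm genes belong to the machinery of the inner membrane and of the space before it. Of these, 2 had higher and 4 lower means in the mutants, with a median log2 difference of -0.17. Timm17a and Timm17b encode alternative forms of a core subunit of the TIM23 translocase. Timm17b had the largest lower mean of all 47 genes, with 18.7, 19.0 and 36.1 in the mutants against 38.0, 31.6 and 31.9 in the wild type. Its log2 difference was -0.53 ± 0.28 (SE, n = 3 each; limma adjusted p = 0.708), and mutant replicate 3 again stood with the wild type. Timm17a was at 65.2, 54.4 and 67.9 in the mutants, against 44.9, 61.7 and 68.1 in the wild type (log2 difference 0.12 ± 0.22, adjusted p = 0.912). Its second, dimmer probe set had a difference of the other sign, -0.06 ± 0.22, so the direction for Timm17a was not settled.

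Timm23, the channel of the same translocase, was at 84.7, 84.8 and 117.9 in the mutants, against 72.6, 122.4 and 139.9 in the wild type (log2 difference -0.18 ± 0.28, limma adjusted p = 0.870). It was listed on 4 probe sets, of which a pair carried identical values on all 6 arrays, and the other pair gave -0.17 and -0.18. How far these probe sets read near-identical copies of the gene is uncertain. Timm50, the receptor that passes incoming proteins to that channel, was at 23.8, 21.8 and 28.2 in the mutants, against 28.6, 25.5 and 33.7 in the wild type (log2 difference -0.25 ± 0.21, adjusted p = 0.770). The small chaperones of the intermembrane space were divided: Timm8b averaged 27.1 ± 6.01 in the mutants and 24.0 ± 5.84 in the wild type (log2 difference 0.18), and Timm13 averaged 31.5 ± 6.62 in the mutants and 34.6 ± 4.12 in the wild type (SD, n = 3 each; -0.15).

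At the outer membrane, 3 Tomm genes had higher and 4 lower means, with a median log2 difference of -0.03. Tomm20, a receptor that recognises targeting sequences, was at 40.1, 30.5 and 39.8 in the mutants, against 23.4, 32.2 and 34.7 in the wild type (log2 difference 0.30 ± 0.23, limma adjusted p = 0.759), and its second probe set also gave 0.30. Tomm40, the channel of the complex, was at 36.6, 35.4 and 41.8 in the mutants, against 41.1, 43.7 and 50.1 in the wild type (log2 difference -0.24 ± 0.19, adjusted p = 0.767). The groups of Tomm40 overlapped only through mutant replicate 3 and wild-type replicate 1. Tomm22, the central receptor that holds the complex together, averaged 16.8 ± 3.22 in the mutants and 19.5 ± 1.64 in the wild type (SD, n = 3 each; log2 difference -0.23). The small subunit genes Tomm5, Tomm6 and Tomm7 had log2 differences of 0.08, -0.14 and 0.02. Tomm34, a cytosolic co-chaperone rather than a subunit of the channel, was at -0.03.

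**Figure D2:**
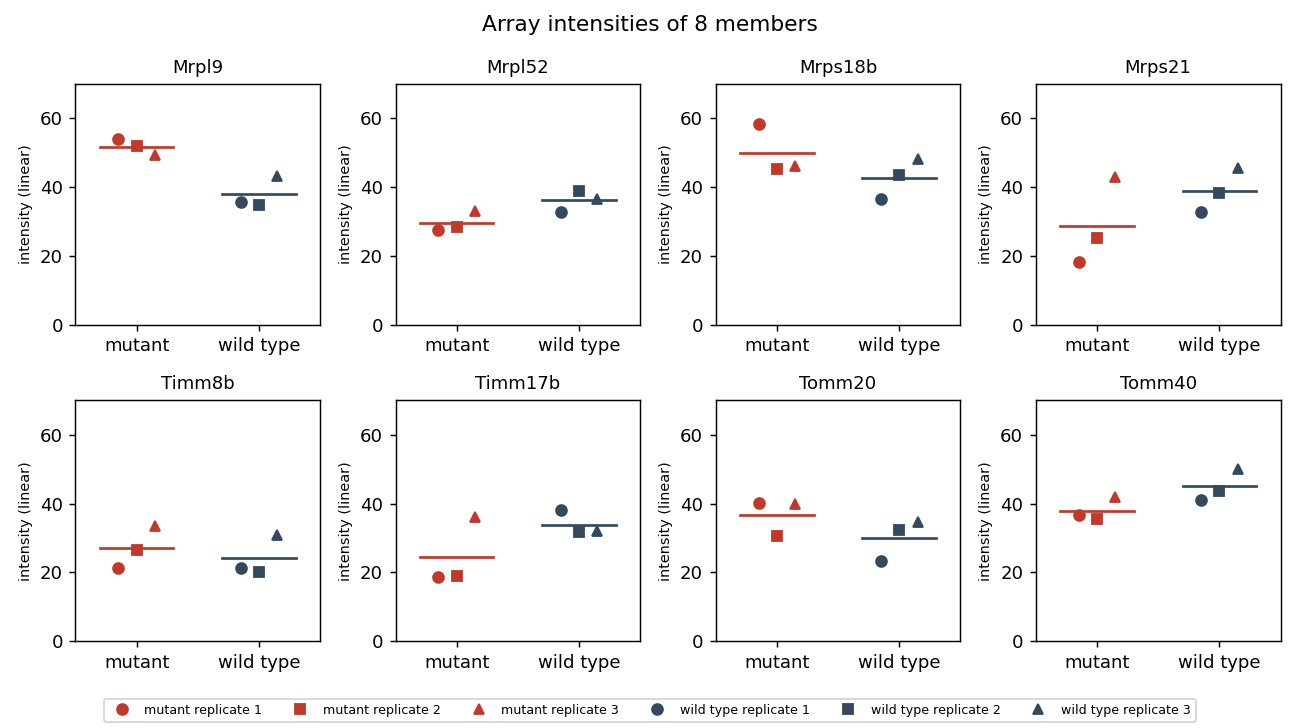
Linear intensity on each array (points, shaped by replicate, with group means as lines; mutant left, wild type right) for the gene of smallest p in each direction in every class. In Mrpl9 all mutant values (49.2 to 54.0) lie above all wild-type values (34.9 to 43.1), while in Mrps21 and Timm17b mutant replicate 3 (42.8 and 36.1) lies among the wild-type values.

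The mutant arrays were not alike for these genes. Mutant replicate 3 was the highest of the 3 mutant arrays in 35 of the 47 genes (74.5%), against 41.9% of all named genes. Mutant replicate 1 was the lowest of the 3 in 20 of the 47, against 28.6% of all named genes. Mutant replicate 2 was also the lowest in 20 of the 47, which is close to its 39.5% of all named genes. Relative to the median of all probe sets on each array, the 47 genes stood at -0.18, -0.14 and 0.06 on the mutant arrays (log2), against 0.22, -0.09 and 0.12 on the wild-type arrays. The ranges of the 2 groups overlapped, with mutant replicate 3 above wild-type replicate 2. Wild-type replicate 1 was the lowest of the 6 arrays in 55.0% of named genes, but in 11 of these 47 (23.4%). The genes of this machinery were not dim on that array in proportion to the rest. The Timm genes stood at -0.23, -0.27 and 0.16 on the mutant arrays, against 0.18, -0.07 and 0.17 on the wild-type arrays. The Tomm genes stood at -0.18, -0.16 and 0.18 in the mutants, against 0.21, -0.01 and 0.12 in the wild type.

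Levels of other gene groups moved over the same arrays. Each of the 15 cell division genes in the deposited table, of 20 listed, averaged less in the mutants (0 passed, median log2 difference -0.34). They stood at -0.33, -0.40 and 0.12 on the mutant arrays, against 0.33, 0.00 and 0.37 on the wild-type arrays. Their summed intensity ranged from 425.7 to 673.3 in the mutants and from 599.7 to 877.5 in the wild type. Of these genes, Rrm2, Ccnb2 and Bub1b were under 20 on 2 mutant arrays and 0 wild-type arrays. Top2a was under 20 on 2 mutant arrays and 1 wild-type array. Such genes met the filter by level mainly through the wild type, so their lower mutant means are partly tied to it. Of 17 skeletal muscle markers 11 had lower means, and they stood at -0.21, -0.22 and 0.29 on the mutant arrays, against -0.30, 0.04 and 0.47 on the wild-type arrays, with sums of 6529 to 8503 in the mutants and 4903 to 10102 in the wild type. The 47 genes and the muscle markers stood on opposite sides of 0 on wild-type replicates 1 and 2. On every other array they stood on the same side. All 6 epidermal markers had lower means too, with sums of 51.3 to 460.4 in the mutants and 47.3 to 1798 in the wild type. Lor, Krtdap, Krt14, Krt10 and Krt5 were each under 20 on 2 mutant arrays and 1 wild-type array, so the same limit holds for them. Other lists lay the other way, as did the whole table, in which 5099 of 8997 probe sets had higher means. Of 5 osteoclast markers 4 had higher means (median log2 difference 0.72), with sums of 1220 to 1747 in the mutants and 630.9 to 1081 in the wild type. In Ctsk, Acp5 and Mmp9 the mutant values exceeded every wild-type value (smallest limma adjusted p = 0.590), a pattern found in 9.18% of all probe sets. Of 10 neutrophil and myeloid markers 8 had higher means, with sums of 497.0 to 587.0 in the mutants and 335.5 to 602.7 in the wild type. They stood at -0.09, 0.02 and 0.19 on the mutant arrays, against 0.15, -0.73 and 0.25 on the wild-type arrays, so wild-type replicate 2 stood apart. Means were also higher for 13 of the 16 bone and cartilage markers. These stood at 0.09, 0.10 and 0.01 on the mutant arrays, against -0.19, 0.05 and 0.00 on the wild-type arrays, lowest on the dim wild-type replicate 1. These counts cover only markers with a named probe set in the deposited table, such as 6 of 12 epidermal and 5 of 9 osteoclast markers. The levels of the other listed markers could not be read. S100a8 and Prtn3, under 20 on 1 mutant array and 2 wild-type arrays, met the filter by level mainly through the mutants. The part of any of these cell types in the levels of the 47 genes was not tested.

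**Figure D3:**
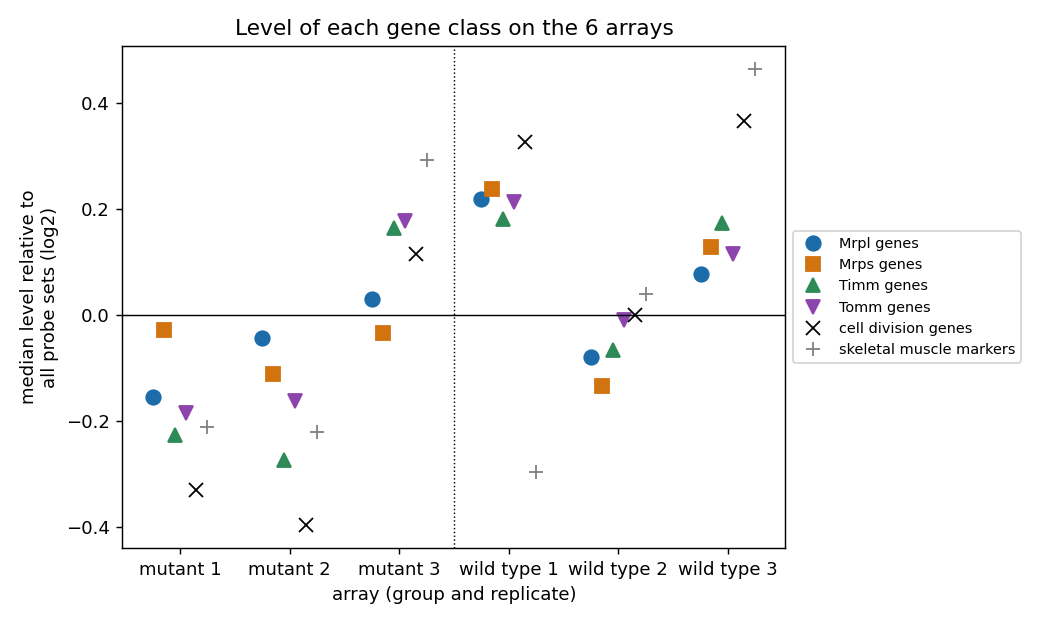
Median level of each gene class on each array (log2, each gene relative to its own mean and each array relative to all probe sets), with mutant arrays left and wild-type arrays right of the dotted line. The Timm and Tomm classes lie between -0.27 and -0.16 on mutant replicates 1 and 2 but at 0.16 and 0.18 on mutant replicate 3, and the cell division genes are also highest among the mutants on replicate 3.

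Other genes that serve the same ribosome and import route were divided between higher and lower means, and 0 passed in any list. Of 4 translation factors 2 were higher and 2 lower: Tsfm, which recharges the elongation factor Tu, had a log2 difference of -0.35 ± 0.25, and Mrrf, which recycles ribosomes, was at 0.28 ± 0.21. Tsfm was under 20 on 2 mutant arrays and 1 wild-type array. It met the filter by level mainly through the wild type, so its lower mutant mean is partly tied to it. Of 3 proteins bound to the ribosome without an Mrp symbol, Oxa1l, the insertase that places new proteins into the inner membrane, was at 83.3, 106.5 and 83.0 in the mutants, against 56.1, 75.1 and 60.7 in the wild type. All its mutant values lay above the wild-type values, as in 9.18% of all probe sets, with a log2 difference of 0.51 ± 0.21 (limma adjusted p = 0.667). The small-subunit gene Dap3 was at 0.12. Of 4 assembly factors 2 were higher and 2 lower, with Eral1, a chaperone of the small-subunit RNA, at -0.20 and Rbfa at 0.13. Of 6 genes for mitochondrial DNA and RNA upkeep 4 were higher, with Lrpprc, which stabilises mitochondrial messenger RNAs, at 0.31 and Elac2 at 0.09.

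Of 11 import partners 5 were higher and 6 lower (median log2 difference -0.01), with Pmpca, a subunit of the peptidase that removes targeting sequences, at 0.36 ± 0.25 and Chchd6 at -0.31 ± 0.22. Of 11 mitochondrial chaperones and proteases 9 were higher and 2 lower (median 0.04), with the inner-membrane protease genes Afg3l2 at 0.46 ± 0.26 and Yme1l1 at 0.22 ± 0.21. Of 4 regulators of mitochondrial genes 3 were higher and 1 lower. Gabpa, an ETS-family activator of many nuclear genes for mitochondrial proteins, was at 23.8, 22.9 and 25.7 in the mutants, against 15.4, 20.4 and 17.9 in the wild type. The log2 difference was 0.44 ± 0.20 (limma adjusted p = 0.672). With 2 of its wild-type arrays under 20, Gabpa met the filter by level mainly through the mutants, where it was higher, so that its groups did not overlap is partly tied to the filter. Pprc1, a coactivator related to PGC-1, was at 21.3, 21.4 and 27.5 in the mutants, against 23.9, 31.2 and 42.5 in the wild type (log2 difference -0.45 ± 0.25, adjusted p = 0.709). Yy1, a zinc finger factor with many targets, was at 49.1, 48.8 and 47.9 in the mutants, against 32.3, 42.6 and 46.7 in the wild type (log2 difference 0.28 ± 0.21, adjusted p = 0.754). Its mutant values also lay above all wild-type values, as in 9.18% of all probe sets.

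Promoters were read for motifs of activators known to serve nuclear genes of mitochondria, in RefSeq windows from 250 bases before to 50 bases after each annotated start (build GRCm38.p6). Windows were held for 43 of the 47 genes, 50 windows in all. The motif of nuclear respiratory factor NRF1, searched as GCGCANGCG on both strands, was in 11 of the 50 windows (22.0%) and in 8.58% of the 21262 windows of protein-coding genes. The ETS motif CCGGAAG, bound by GABPA among others, was in 19 windows (38.0%) against 11.6%, and the YY1 motif AAGATGGC was in 4 (8.0%) against 3.05%. The windows of the 47 genes were also richer in CG dinucleotides, with a median of 23 against 13, and the NRF1 and ETS motifs hold CG themselves. The median log2 difference was -0.04 for the 11 genes with an NRF1 motif and -0.10 for the 32 without, and -0.13 for the 18 genes with an ETS motif and -0.10 for the 25 without. A match is a description of letters and does not show binding in bone.

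The windows of the gene with the highest difference, Mrpl9, and of the 3 genes with the lowest, Timm17b, Mrps21 and Mrps26, are printed 5′ to 3′. Any matches to these motifs are in capitals.
Mrpl9, GRCm38.p6, chr3:94443086-94443385, plus strand: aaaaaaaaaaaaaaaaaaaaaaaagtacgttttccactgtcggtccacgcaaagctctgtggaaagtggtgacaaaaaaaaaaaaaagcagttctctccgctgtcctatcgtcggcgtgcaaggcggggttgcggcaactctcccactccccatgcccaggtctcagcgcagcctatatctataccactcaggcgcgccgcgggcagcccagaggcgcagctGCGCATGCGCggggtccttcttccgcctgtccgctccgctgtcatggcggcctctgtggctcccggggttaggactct
Timm17b, GRCm38.p6, chrX:7899086-7899385, plus strand: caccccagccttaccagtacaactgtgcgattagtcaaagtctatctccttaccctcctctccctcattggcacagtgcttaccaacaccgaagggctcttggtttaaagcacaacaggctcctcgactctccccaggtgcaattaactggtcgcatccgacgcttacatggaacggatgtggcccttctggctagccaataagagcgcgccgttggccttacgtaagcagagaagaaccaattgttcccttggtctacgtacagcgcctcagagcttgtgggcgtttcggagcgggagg
Mrps21, GRCm38.p6, chr3:95871465-95871764, minus strand: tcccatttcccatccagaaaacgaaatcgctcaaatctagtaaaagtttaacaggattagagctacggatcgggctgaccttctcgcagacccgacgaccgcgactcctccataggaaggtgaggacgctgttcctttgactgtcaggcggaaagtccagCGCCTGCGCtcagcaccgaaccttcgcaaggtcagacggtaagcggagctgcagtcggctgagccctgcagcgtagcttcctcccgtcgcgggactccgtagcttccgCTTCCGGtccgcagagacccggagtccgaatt
Mrps26, GRCm38.p6, chr2:130563507-130563806, plus strand: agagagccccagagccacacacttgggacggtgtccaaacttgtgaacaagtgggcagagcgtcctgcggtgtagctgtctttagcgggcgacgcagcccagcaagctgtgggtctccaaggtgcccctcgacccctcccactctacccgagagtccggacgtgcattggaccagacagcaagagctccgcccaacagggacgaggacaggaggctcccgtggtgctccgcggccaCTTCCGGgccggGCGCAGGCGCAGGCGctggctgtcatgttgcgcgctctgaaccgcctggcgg
The Mrpl9 window held 2 overlapping NRF1 matches, 1 on each strand, that make up a single palindrome. The Mrps21 window held 1 NRF1 match before the start and 1 ETS match after it. The Mrps26 window held 1 ETS match just before 2 overlapping NRF1 matches at the start itself. In the Timm17b window these letters were not found.

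With single arrays left out, the median log2 difference of the 47 genes ranged from -0.15 to -0.01. Without wild-type replicate 1, 36 of the 47 genes had lower means, against 55.3% of all probe sets. Without wild-type replicate 3, 27 of the 47 had lower means, against 37.5% of all probe sets. The median of the 47 genes was -0.10 and -0.01 in those fits, against -0.03 and 0.11 for all probe sets. The counts thus moved in the same direction as the whole table. Without mutant replicate 3, Timm17b was at -0.84 (limma adjusted p = 0.304), Mrps21 at -0.84 (adjusted p = 0.373) and Mrps26 at -0.65 (adjusted p = 0.478), so that 1 array moved each of these values by over 1.5 times. In that fit 0 of the 47 passed, against 15 of all 8997 probe sets. Mrps21 was at -0.23 without mutant replicate 1, and Mrps26 at -0.22 without mutant replicate 2. The median of the Timm genes was -0.33 without mutant replicate 3, -0.10 without mutant replicate 1, -0.07 without mutant replicate 2 and -0.06 without wild-type replicate 3. Without wild-type replicate 1, the dim array, Tomm20 was at 0.13, Mrpl24 at 0.12, Timm8b at 0.11 and Mrps18c at -0.54. Timm8b was at 0.02 without mutant replicate 3, and Mrps18c at -0.16 without mutant replicate 2. Mrpl9 stayed between 0.40 and 0.55 with each array left out in turn.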

How the data were processed

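Single-colour arrays measured total RNA of newborn forearm bones in 3 mutant and 3 wild-type samples; per the labels' protocols, RNeasy columns purified the RNA and the label was biotin. The deposited values were linear intensities of 8997 probe sets; how they were background-corrected, summarised and scaled was not given in the sources used here. No probe set had fewer than 3 arrays at an intensity of 20 or more. Symbols came from the platform annotation; 6398 probe sets had 1 symbol, 576 several and 2023 none, and 0 symbols needed updating against RefSeq.

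Intensities were converted to log2 without further scaling. Group means were fitted to all probe sets with lmFit and eBayes (limma 3.58.1, R 4.3.3), with two-sided tests and Benjamini-Hochberg adjustment over all 8997; this gives the adjusted p-values. Intervals are at 95%. The fit was also run on simulated data with known changes and independent noise, without the array-wide shifts seen here. No result here rests on that run. Tables and plots were made with pandas 2.3.3 and matplotlib 3.10.9 (Python 3.11.15).

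Named genes were the 3 of smallest p in each direction in each class, genes whose probe sets differed in sign, and the 2 of smallest p per pathway list; Mrpl11, Mrpl12, Mrpl58, Mrps18a, Timm23, Tomm34, Yy1, Ctsk, Acp5, Mmp9 and the matrix collagens were added after their values were seen. The members and lists were chosen with earlier results of these data known. The number of arrays limits the precision.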

Additional observations from a re-analysis of the deposited data

How the results depend on the processing

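In all 14 alternatives, which changed the scaling, the dim-probe filter, the variance model, array weights, the pairing, the offset, the probe set per gene or the arrays, 0 of the 47 genes passed an adjusted p of 0.05, and limma's smallest adjusted p ranged from 0.222 (array weights, Mrps18c) to 0.983. Over all probe sets 4 passed with array weights, 15 without mutant replicate 3 and 0 in the other alternatives. The median of the 47 genes stayed below that of all probe sets in each.

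The count at an unadjusted p under 0.05 with lower means was 0 with all arrays (1.7% of all probe sets), 1 after quantile normalization (3.58%) and 9 with array weights (8.85%), which gave wild-type replicate 1 a weight of 0.232. It ranged from 0 to 3 with single arrays left out, the 3 being without mutant replicate 3 (3.57% of all probe sets). The count with higher means was 1 with all arrays (5.74% of all probe sets) and 0 with the replicate block (4.95%). It was 0 to 1 with single arrays left out, where the share of all probe sets ranged from 2.61% to 8.99%. Tomm7 turned direction after quantile normalization (-0.042), median centring (-0.035) and array weights (-0.038), and ranged from -0.10 to 0.11 with single arrays left out. With array weights Timm17a was at -0.11 and Tomm5 at -0.11; with single arrays left out they ranged from -0.060 to 0.24 and from -0.094 to 0.24, and Mrps10 from -0.074 to 0.19. With single arrays left out the median of the Tomm genes ranged from -0.14 to 0.05, and with array weights it was -0.16. The causes were not tested.

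The labels do not say that replicate numbers mark litters. Same-numbered samples had correlations of -0.11, -0.03 and 0.32 in their deviations from group means. Differently numbered pairs ranged from -0.42 to 0.34, so same-numbered samples did not stand out. The replicate block was therefore kept only as an alternative. It moved the unadjusted count over all probe sets to 445 higher and 236 lower, against 516 and 153. Scaling moved the share of all probe sets with lower means to 52.4% after quantile normalization and 51.7% after median centring, against 43.3%, and that of the 47 genes to 36 of 47 in both, against 34.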
